A study of Mus musculus with 6 samples.

Results

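The 9 complement genes described here are *C1qa*, *C1qb*, *C1qc*, *C2*, *C4b*, *C3*, *Cfb*, *Serping1* and *C3ar1*, taken by symbol from the 24346 genes listed for each heart library. Hearts of C57BL/6 J male mice were sequenced as 6 libraries, 2 in each of 3 groups. The C group received chow, the N group received the NASH diet, which is rich in fat, cholesterol and sucrose and contains bile acid, and the NP group received the NASH diet with pemafibrate, a selective PPARα modulator, at 0.1 mg/kg. No group received pemafibrate with chow, no engineered allele is named, and the age of the mice is not given in the sources used here. The sample labels state 3 weeks of feeding, whereas the methods of the study state a longer period. Replicates 1 and 2 of N, and likewise of NP, have deposited files named in unlike forms under 1 labelled condition, and whether the names mark a batch is not given in the sources used here. Nothing states whether the 2 libraries of a group came from separate hearts or from pools, so that *P* values measure only the spread between these libraries.

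Complement is a cascade of plasma proteins and receptors that marks cells and debris for clearance and recruits leukocytes. The classical pathway starts when C1q binds its target, and the proteases of the C1 complex then cut C4 and C2 to form the enzyme that cleaves C3. Factor B builds the corresponding enzyme of the alternative pathway, the C1 inhibitor encoded by *Serping1* blocks the C1 proteases, and C3a, the small fragment of C3, is sensed by the receptor encoded by *C3ar1*. Most plasma complement is made in the liver, but C1q is made mainly by tissue macrophages, and C3, C4 and C1 inhibitor are also made by fibroblasts and other tissue cells.

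All 9 genes were measured in every library, in FPKM, fragments counted per gene and corrected for transcript length and the mapped total of the library, and all 9 passed the filter of a mean FPKM of at least 0.5. In the N group each of the 9 genes lay above both C libraries and above both NP libraries. *C1qb*, *C2* and *C4b* rose in the N over the C group, to 2.31, 4.67 and 5.16 times the C mean FPKM. *C1qb* and *C1qc* fell in the NP against the N group, to 0.361 and 0.425 times the N mean FPKM. The other differences did not pass the test, and none of the 9 genes passed it for NP against C.

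The labelled tissue was checked first. The 10 cardiomyocyte markers, *Myh6*, *Tnnt2* and *Myl2* among them, were present in all libraries and summed to between 66400 and 92600 FPKM, although the extraction text in the labels names liver tissue. The 2 C libraries differed in adipocyte and mesothelial markers, given below, and in hepatocyte markers. The 20 hepatocyte markers, led by *Alb*, summed to 960 FPKM in C replicate 2 and 79.5 FPKM in C replicate 1. In the N and NP libraries they summed to between 28.8 and 63.0 FPKM. The highest of these sums, in N replicate 1, came mostly from *Cyp2e1*, *Hp* and *Ahsg*, at 29.9, 20.2 and 9.37 FPKM. In C replicate 1 these genes were at 2.95, 4.07 and 5.38 FPKM. Of the 20 markers, 7 were at 0 in N replicate 1. C replicate 1 was not free of hepatocyte markers, with *Alb* at 10.8 FPKM against 0.555 to 2.04 FPKM in the N and NP libraries. For N against C, 15 of the 20 were lower at an unadjusted limma *P* under 0.05, against 6.76% of all genes. For NP against C, 16 of the 20 were lower in both NP than in both C libraries, and 4 overlapped. There, 23.0% of all genes were lower without overlap. Differences from the C group are therefore also given without this library. From the smallest steps between FPKM values, the depth was estimated at 21600000 and 26200000 reads in the C libraries and between 8230000 and 8790000 reads in the N and NP libraries. The C libraries were thus 2.46 to 3.18 times as deep, so that depth and diet cannot be told apart in comparisons with the C group.

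Most of the 9 genes lie in 2 clusters of the mouse genome. By the RefSeq annotation of GRCm38.p6, the patch release that corresponds to mm10, *C1qb* lies at chr4:136880126-136886200, *C1qc* at chr4:136889801-136892936 and *C1qa* at chr4:136895916-136898844. *C4b* (chr17:34728139-34743902), *Cfb* (chr17:34856374-34862514) and *C2* (chr17:34862602-34882100) share a stretch of chromosome 17, where *Cfb* ends 87 bases before *C2* begins. *C3* lies apart on the same chromosome (chr17:57203967-57228136), *Serping1* at chr2:84765360-84775444 and *C3ar1* at chr6:122847140-122856157. The GENCODE M21 annotation also places a gene model, *Gm20547*, across both *Cfb* and *C2*, and *C4a*, a near copy of *C4b*, lies nearby (chr17:34809092-34823460). *C4a* was measured at 0.0227 to 0.133 FPKM. How reads shared by such neighbours and copies were divided is not given in the sources used here, so the values of *Cfb*, *C2* and *C4b* are uncertain to that degree.

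RefSeq promoter windows, 250 bases before to 50 bases after the start site, were found for 4 of the 9 genes, *C1qb*, *C1qc*, *C3* and *C3ar1*. Those of *C1qb* and *C1qc*, neighbours whose levels ran close together, and of *C3*, the central component, are shown 5′ to 3′ on the minus strand of GRCm38.p6, where all of these genes are transcribed. Capitals mark a motif match. The windows are chr4:136886151-136886450, chr4:136892865-136893164 and chr17:57228087-57228386.
C1qb: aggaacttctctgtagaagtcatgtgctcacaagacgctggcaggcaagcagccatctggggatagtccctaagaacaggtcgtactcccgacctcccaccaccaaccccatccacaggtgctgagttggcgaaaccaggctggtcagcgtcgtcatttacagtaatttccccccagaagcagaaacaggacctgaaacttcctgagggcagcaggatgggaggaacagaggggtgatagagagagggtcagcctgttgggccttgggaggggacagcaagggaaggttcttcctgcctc
C1qc: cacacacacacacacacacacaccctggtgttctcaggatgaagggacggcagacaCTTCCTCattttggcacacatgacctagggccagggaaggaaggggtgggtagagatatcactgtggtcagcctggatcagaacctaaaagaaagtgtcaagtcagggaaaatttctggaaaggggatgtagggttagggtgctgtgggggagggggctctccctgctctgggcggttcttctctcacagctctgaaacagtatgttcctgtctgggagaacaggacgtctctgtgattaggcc
C3: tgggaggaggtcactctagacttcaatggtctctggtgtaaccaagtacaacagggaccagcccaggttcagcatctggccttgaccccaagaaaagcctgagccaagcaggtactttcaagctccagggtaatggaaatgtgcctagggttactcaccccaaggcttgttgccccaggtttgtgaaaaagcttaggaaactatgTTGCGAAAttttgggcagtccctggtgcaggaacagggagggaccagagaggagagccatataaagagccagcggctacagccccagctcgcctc
The 5 motifs searched on both strands, each on its own and with overlaps allowed, were GAAANNGAA (interferon-stimulated response element core), TTCNNNGAA (gamma-activated site core), TTGCNNAA (C/EBP core), GAGGAAG (PU.1 core) and GGANNTTCC (kappaB core). The *C1qc* window held the PU.1 core on its reverse strand, printed as CTTCCTC, with its first base at -194 from the start site. The *C3* window held the C/EBP core as TTGCGAAA, with its first base at -45. The windows of *C1qb* and *C3ar1* held none of the 5. Of 32851 promoter windows of the same length, 13.6% held the PU.1 core, 10.8% the C/EBP core, 8.56% the interferon-stimulated response element core, 8.30% the gamma-activated site core and 4.26% the kappaB core. These matches describe the letters only.

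The C1q chains form a single hexameric protein, and their genes were among the more abundant of the 9. *C1qa* was at 68.2 and 53.5 FPKM in the C libraries, 141 and 84.9 FPKM in the N libraries, and 53.2 and 41.0 FPKM in the NP libraries. *C1qb* was at 61.7 and 53.0 FPKM in the C group, 143 and 121 FPKM in the N group, and 50.5 and 44.9 FPKM in the NP group. *C1qc* was at 60.0 and 51.0 FPKM in the C group, 126 and 94.3 FPKM in the N group, and 49.8 and 44.0 FPKM in the NP group. For all 3 chains the N libraries were the highest pair and the NP libraries the lowest pair, with no overlap between groups, but the NP and C values came close, at 53.2 and 53.5 FPKM for *C1qa*. N replicate 1 was above N replicate 2 for each chain, most for *C1qa*, whose N replicate 2 reached 0.603 times N replicate 1.

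**Figure D1:**
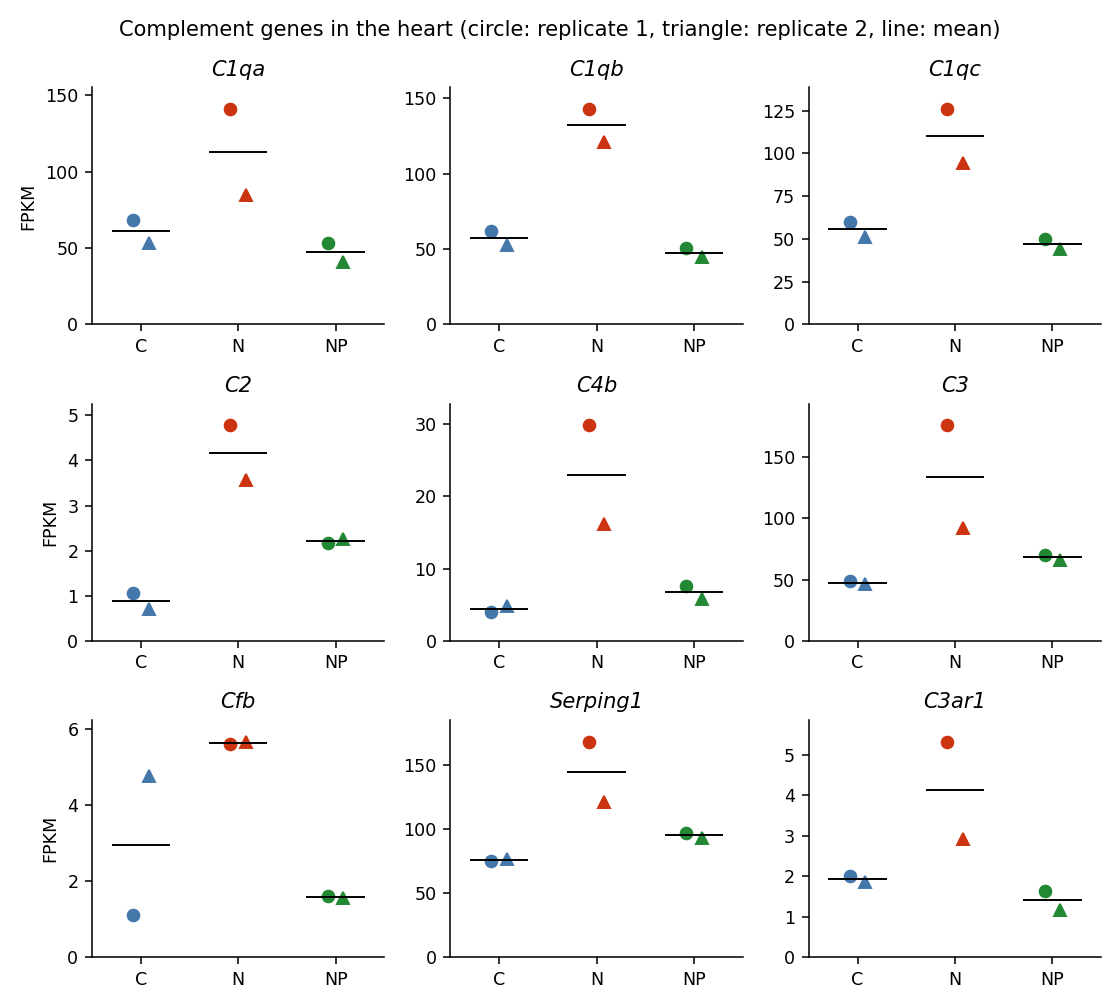
FPKM of the 9 complement genes in each library, 1 panel per gene with its own axis from 0, for the C, N and NP groups. Circles are replicate 1, triangles are replicate 2 and lines are means of 2 libraries. In every panel both N libraries lie above the C and NP libraries, and *Cfb* alone has widely separated C libraries, at 1.12 and 4.77 FPKM.

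On log2(FPKM + 1), *C1qb* was up in the N over the C group by 1.19 (SE 0.14, n = 2 and 2, adjusted *P* = 0.0189, limma with Benjamini-Hochberg adjustment over 12923 genes). The differences of *C1qc*, 0.97 (SE 0.18, limma adjusted *P* = 0.0764), and of *C1qa*, 0.85 (SE 0.27, limma adjusted *P* = 0.238), did not pass. With pemafibrate (NP against N), *C1qb* fell by 1.45 (SE 0.14, limma adjusted *P* = 0.00971) and *C1qc* fell by 1.20 (SE 0.18, limma adjusted *P* = 0.0402). *C1qa* differed by -1.21 (SE 0.27, limma adjusted *P* = 0.173). The 3 chains thus had differences of like size, and the spread between the N libraries of *C1qa* set it apart. Both comparisons share the N libraries, so the rise and the fall are not independent observations. Without C replicate 2, the differences for N against C were 1.08 for *C1qb* (limma adjusted *P* = 0.184), 0.85 for *C1qc* (0.465) and 0.67 for *C1qa* (0.871). Without C replicate 1, N replicate 1 or N replicate 2, the limma adjusted *P* values of *C1qb* were 0.0697, 0.0834 and 0.0574, and its differences lay between 1.07 and 1.31. Without N replicate 1, *C1qa* was at 0.48 (limma adjusted *P* = 0.402).

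The falls for NP against N were also sensitive. *C1qb* missed the threshold without N replicate 1 (limma adjusted *P* = 0.0538), NP replicate 1 (0.0612) or NP replicate 2 (0.0856), with falls between 1.33 and 1.53 on the log2 scale. *C1qc* missed it with any 1 library left out, with limma adjusted *P* values between 0.0513 and 0.236. *C1qc* also missed it with FPKM scaled to the same total (limma adjusted *P* = 0.0697), with quantile normalization (0.0585), without the filter (0.0766) and with only the N and NP libraries in the fit (0.126). The fall of *C1qb* passed under each of these 4 settings.

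The balance of the chains was stable between libraries. The highest chain was 1.05 to 1.14 times the lowest in 5 of the libraries and 1.43 times in N replicate 2. The mean of the 3 chains was 63.3 and 52.5 FPKM in the C group, 137 and 100 FPKM in the N group, and 51.1 and 43.3 FPKM in the NP group. Genes that define macrophages moved as well. The 15 macrophage markers fixed for the check summed to 261 and 249 FPKM in the C group, 423 and 401 FPKM in the N group, and 195 and 180 FPKM in the NP group, and none of them was at 0 in any library. Of the 15, 14 were higher in both N libraries than in both C libraries and 4 passed the limma test, against 22.5% and 1.48% of all genes. For NP against N, 14 were lower in both NP libraries than in both N libraries and 7 passed the test, against 14.7% and 1.39% of all genes.

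Relative to *Csf1r*, the receptor that macrophages need to survive, the C1q mean was 3.64 and 3.21 in the C group, 4.06 and 4.27 in the N group, and 2.79 and 2.97 in the NP group. This ratio was higher in both N libraries than in the C libraries and lower in both NP libraries. As a share of the summed macrophage markers, the C1q mean was 24.2% and 21.1% in the C group, 32.3% and 25.0% in the N group, and 26.2% and 24.1% in the NP group, and the NP libraries overlapped both the C and the N libraries. That sum is dominated by *Lyz2*, at 104 to 258 FPKM, and both the separation and the order of the groups depended on the marker chosen. *Fcgr1* was at 0.826 and 0.887 FPKM in the C group and 3.94 and 3.12 FPKM in the N group. Relative to it, the C1q mean was lower in both N than in both C libraries. *Adgre1* was at 5.79 and 5.81 FPKM in the C group and 13.2 and 11.4 FPKM in the N group. Relative to it, the C and N libraries overlapped. In bulk tissue, fewer cells of a type and less RNA per cell cannot be told apart, and the part of the macrophage markers in the C1q differences was not tested.

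**Figure D2:**
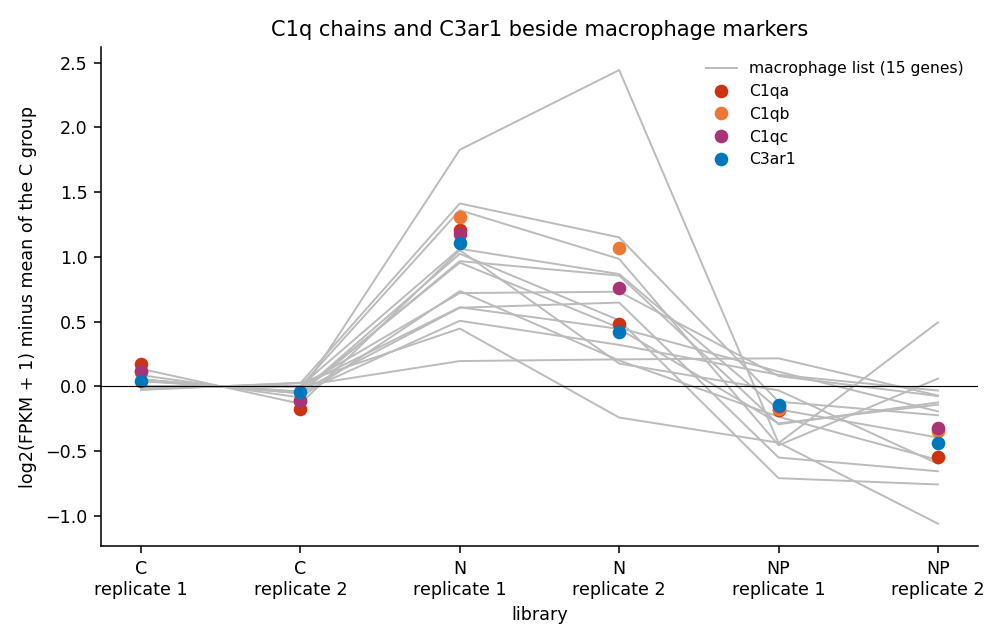
log2(FPKM + 1) in each library minus the mean of the C group, for the C1q chains and *C3ar1* (points) and for the 15 macrophage markers (grey lines, each joining the values of 1 gene over the 6 libraries). The points lie above 0 in both N libraries and below 0 in both NP libraries, where they lie within the spread of the grey lines.

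C2 and C4 are the substrates that the C1 proteases cut. *C2*, which had the lowest mean FPKM of the 9 genes over all libraries, just below *C3ar1*, was at 1.07 and 0.716 FPKM in the C group, 4.78 and 3.57 FPKM in the N group, and 2.18 and 2.26 FPKM in the NP group. *C4b* was at 4.04 and 4.83 FPKM in the C group, 29.8 and 16.1 FPKM in the N group, and 7.54 and 5.85 FPKM in the NP group. Neither gene overlapped between any 2 groups, and unlike the C1q chains both stood higher in the NP than in the C libraries. For N against C, *C2* rose by 1.45 (SE 0.17, limma adjusted *P* = 0.0189), and *C4b* rose by 2.08 (SE 0.29, limma adjusted *P* = 0.0316), the largest difference of the 9 on this scale. Among the 12923 genes tested, *C4b* ranked 94 and *C2* ranked 161 from the highest difference.

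For NP against N, *C4b* differed by -1.58 (SE 0.29, limma adjusted *P* = 0.0924) and *C2* by -0.67 (SE 0.17, limma adjusted *P* = 0.242), and neither passed. For *C2*, the NP mean of 2.22 FPKM lay between the C mean of 0.893 FPKM and the N mean of 4.17 FPKM. Its difference for NP against C was 0.77 (95% interval 0.35 to 1.19, limma adjusted *P* = 0.461). *C2* rests on few reads, at most 38 to 103 per library, if its longest transcript is assumed, and log2(FPKM + 1) understates differences at such levels. Without C replicate 2, the differences for N against C were 1.31 for *C2* (limma adjusted *P* = 0.164) and 2.18 for *C4b* (limma adjusted *P* = 0.207). *C4b* passed for NP against N without N replicate 2, at -2.01 (limma adjusted *P* = 0.0390). With any library but C replicate 2 left out, the difference of *C2* for N against C lay between 1.28 and 1.62. Its call was lost whichever library was left out. It was also lost when both NP libraries were dropped (limma adjusted *P* = 0.0525). For N against C, *C4b* kept its call only without N replicate 2 (limma adjusted *P* = 0.0235), and missed it without C replicate 1 (0.182), N replicate 1 (0.0521), NP replicate 1 (0.0739) or NP replicate 2 (0.0738).

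C3 is the component on which all pathways converge. *C3* was at 48.6 and 46.4 FPKM in the C group, 176 and 92.1 FPKM in the N group, and 70.5 and 65.8 FPKM in the NP group. The C and NP libraries were each close together, whereas N replicate 2 reached 0.524 times N replicate 1, the widest gap between N libraries among the 9 genes. The difference for N against C was 1.40 (SE 0.29, limma adjusted *P* = 0.100), and that for NP against N was -0.89 (SE 0.29, limma adjusted *P* = 0.431). Without N replicate 2, both passed, with 1.87 (limma adjusted *P* = 0.0158) and -1.35 (limma adjusted *P* = 0.0297). Without N replicate 1, neither passed, with 0.94 (limma adjusted *P* = 0.0596) and -0.43 (limma adjusted *P* = 0.406). Without C replicate 2, the difference for N against C was 1.37 (limma adjusted *P* = 0.497). The NP mean was 1.43 times the C mean, a difference of 0.51 (95% interval -0.20 to 1.22) that did not pass.

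Fibroblasts are a known tissue source of C3 and C4. The 10 fibroblast markers summed to 1250 and 1450 FPKM in the C group, 1760 and 1590 FPKM in the N group, and 1720 and 1870 FPKM in the NP group, with none at 0. Of the 10, 6 were higher in both N than in both C libraries, against 22.5% of all genes. In both NP libraries, 7 were higher than in both C libraries, against 19.5% of all genes. By limma, none passed the test in any comparison. At an unadjusted *P* under 0.05, 1 of the 10 was higher for N against C and 3 for NP against C, against 8.24% and 3.87% of all genes. For NP against N the count was 0. Expressed as a share of this sum, *C3* was 3.87% and 3.19% in the C group, 9.96% and 5.79% in the N group, and 4.09% and 3.52% in the NP group. *C4b* was 0.322% and 0.332% in the C group, 1.69% and 1.01% in the N group, and 0.437% and 0.313% in the NP group. Relative to the fibroblast markers, both genes were therefore highest in the N group, and the C and NP groups overlapped. The 6 mesothelial markers also stood higher on the NASH diet, at 9.59 and 1.32 FPKM in the C group, 34.7 and 22.9 FPKM in the N group, and 24.5 and 25.0 FPKM in the NP group, 2 of them being at 0 in C replicate 2. All 6 were higher in both N and both NP libraries than in both C libraries, against 22.5% and 19.5% of all genes. For N against C, 1 passed the test, where 1.48% of all genes rose. The part of these cells in the C3 and C4b differences was not tested.

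Factor B carries the protease of the alternative pathway. *Cfb* was at 1.12 and 4.77 FPKM in the C group, 5.61 and 5.67 FPKM in the N group, and 1.62 and 1.57 FPKM in the NP group. The N and NP libraries were each nearly equal, and only the C libraries disagreed, by 4.27 times. This was the only one of the 9 genes with such a gap, since the others had ratios of C replicate 2 to C replicate 1 between 0.669 and 1.20. The 20 hepatocyte markers were higher in C replicate 2 by 8.51 to 19.5 times, with a median of 11.4, and *Alb* stood at 211 FPKM against 10.8 FPKM.

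*Cfb* did not pass in any comparison. The N group differed from the C group by 0.93 (SE 0.44, limma adjusted *P* = 0.396), and the NP group from the N group by -1.36 (SE 0.44, limma adjusted *P* = 0.430). Its NP and C libraries overlapped, with a difference of -0.43 (95% interval -1.50 to 0.64). Without C replicate 2, the difference for N against C was 1.65 (limma adjusted *P* = 0.0519) and that for NP against C turned to 0.29. Without C replicate 1, the former was 0.20. With C replicate 1 or C replicate 2 left out, the C pair no longer enters the shared estimate of the spread, and *Cfb* then passed for NP against N (limma adjusted *P* = 0.0405 and 0.0401). The direction of *Cfb* for NP against C thus depended on which C library was used. It rests on at most 34 reads in each NP library.

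**Figure D3:**
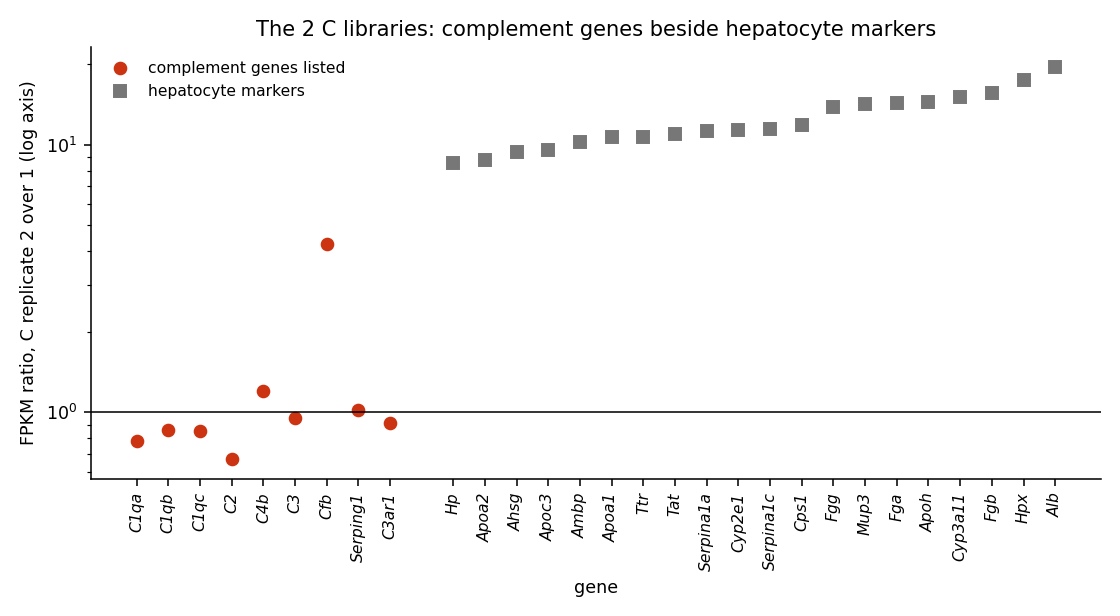
Ratio of FPKM in C replicate 2 to C replicate 1 (log axis) for the 9 complement genes (circles) and the 20 hepatocyte markers (squares, ordered by ratio). *Cfb* at 4.27 lies below the lowest marker at 8.51, and the other 8 genes lie between 0.669 and 1.20.

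*Serping1*, the inhibitor of the C1 proteases, was the most abundant of the 9, ranking 728 among 12923 genes by mean FPKM. It was at 75.3 and 76.5 FPKM in the C group, 168 and 121 FPKM in the N group, and 97.1 and 92.8 FPKM in the NP group. The groups did not overlap, and the C libraries differed least. The difference for N against C was 0.90 (SE 0.17, limma adjusted *P* = 0.0803), that for NP against N was -0.58 (SE 0.17, limma adjusted *P* = 0.335) and that for NP against C was 0.32 (95% interval -0.09 to 0.73). Without N replicate 2, the first of these was 1.14 and passed (limma adjusted *P* = 0.0391). Without N replicate 1, it was 0.66 (limma adjusted *P* = 0.133), and that for NP against N was -0.34 (limma adjusted *P* = 0.506). Without C replicate 2, the difference for N against C was 0.91 (limma adjusted *P* = 0.445). Set against the C1q chains, *Serping1* was 1.19 and 1.46 times the C1q mean in the C group, 1.23 and 1.20 times in the N group, and 1.90 and 2.14 times in the NP group. The inhibitor thus stood higher relative to the C1q genes in both NP libraries than in any other library, a ratio for which no test was run. C1 inhibitor blocks the C1 proteases rather than C1q. No ratio to the genes of those proteases, whose levels are given below, was taken.

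*C3ar1* encodes the receptor through which C3a acts on macrophages and other leukocytes. It was at 2.02 and 1.85 FPKM in the C group, 5.33 and 2.93 FPKM in the N group, and 1.65 and 1.17 FPKM in the NP group. As for the C1q chains, the N libraries were highest and the NP libraries lowest, without overlap. Neither the difference for N against C, 0.77 (SE 0.25, limma adjusted *P* = 0.236), nor that for NP against N, -1.06 (SE 0.25, limma adjusted *P* = 0.192), passed. Without N replicate 1 they were 0.42 (limma adjusted *P* = 0.380) and -0.71 (limma adjusted *P* = 0.360), and without C replicate 2 the first was 0.72 (limma adjusted *P* = 0.813). The ratio of *C3* to *C3ar1* was 24.0 and 25.1 in the C group, 33.0 and 31.4 in the N group, and 42.7 and 56.1 in the NP group. Component and receptor therefore did not keep a constant ratio between the groups.

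Counted together, 3 of the 9 genes rose in the N over the C group, where 1.48% of all genes tested rose. At an unadjusted *P* under 0.05, 8 of the 9 were higher, against 8.24% of all genes, and 9 of the 9 did not overlap, against 22.5% of all genes. The median difference of the 9 was 0.97, against -0.03 over all genes tested. For NP against N, 2 of the 9 fell, where 1.39% of all genes fell. All 9 were lower at an unadjusted *P* under 0.05, against 5.83% of all genes, and all 9 were lower without overlap, against 14.7% of all genes. The median difference was -1.20, against 0.03. In both comparisons the share of the 9 was above that of all genes, but the members were chosen with earlier results of these data known.

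These calls depended on single libraries. For N against C, limma called 0 of the 9 without C replicate 1, C replicate 2 or N replicate 1, called 3 without N replicate 2 (*C3*, *C4b* and *Serping1*), and called *C1qb* only without either NP library. For NP against N it called 0 without N replicate 1, NP replicate 1 or NP replicate 2, and 3 without N replicate 2 (*C1qb*, *C3* and *C4b*). It called 2 without either C library, *C1qb* and *Cfb*. The direction was the same in every setting tried, with all 9 genes higher in the N than in the C group and lower in the NP than in the N group.

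**Figure D4:**
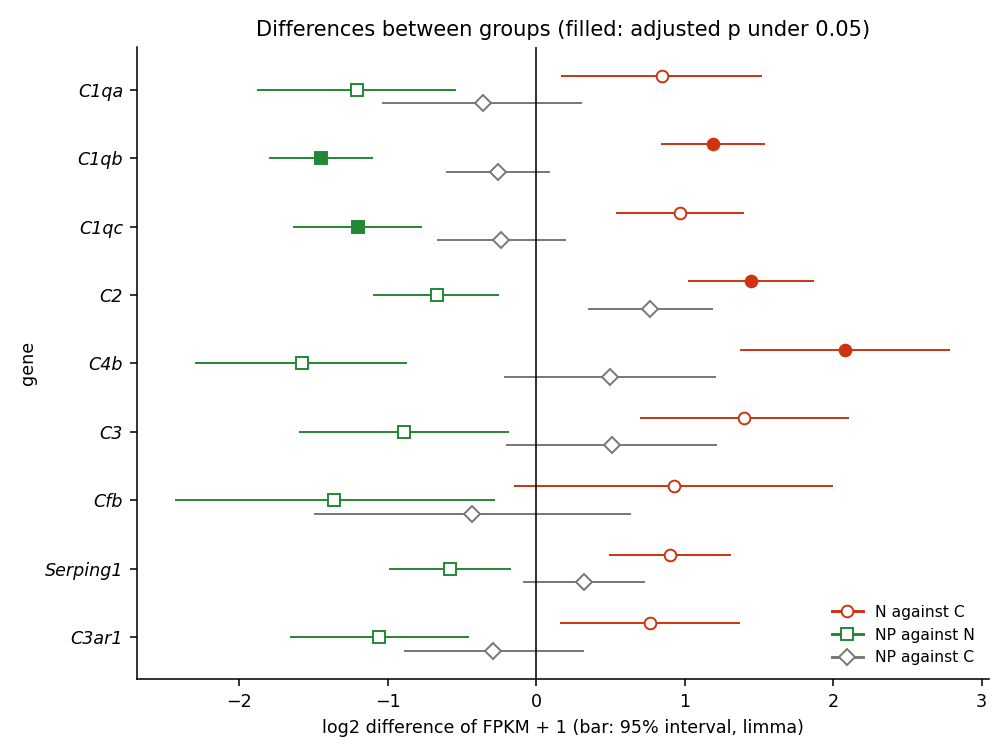
Difference of log2(FPKM + 1) for the 9 genes in each comparison, with 95% intervals from limma; filled symbols have an adjusted *P* under 0.05 and the line marks 0. All 9 genes lie to the right for N against C and to the left for NP against N, whereas for NP against C they lie on both sides, from -0.43 for *Cfb* to 0.77 for *C2*.

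For NP against C, limma called 0 of the 9 genes, and 0.0387% of all genes were called higher. At an unadjusted *P* under 0.05, 1 of the 9 was higher, *C2*, against 3.87% of all genes, and none was lower. Without overlap, 4 were higher in the NP group, *C2*, *C4b*, *C3* and *Serping1*, against 19.5% of all genes. Another 4 were lower, *C1qa*, *C1qb*, *C1qc* and *C3ar1*, against 23.0% of all genes. The lower 4 had differences between -0.36 and -0.24, and the 95% interval of *C1qb* reached from -0.61 to 0.09. The higher 4 had differences between 0.32 and 0.77. Without C replicate 2, the lower 4 lay between -0.54 and -0.33 and the higher 4 between 0.33 and 0.64, and none passed. These splits were not tested as groups, and the NP libraries are compared here with C libraries of greater depth.

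Levels over the 6 libraries were also compared with those of other genes. Among 1782 genes whose group means spanned at least 0.5 on log2(FPKM + 1), those most like the C1q mean by Pearson's r were *Tifab* (0.9965), *Itgam* (0.9937) and *Pik3ap1* (0.9935), and *C3ar1* followed at rank 28 (0.9779). For *C3ar1* they were *Pou2f2* (0.9960), *C1qa* (0.9910) and *Pla2g7* (0.9898). *C1qa* and *C3ar1* thus lay close in pattern although they are on different chromosomes.

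*C3* and *Serping1* were each other's nearest gene (0.9957), followed for both by *Pltp* and *Sgsm2*, with *C4b* at rank 10 for *C3* and rank 4 for *Serping1*. For *C4b* the nearest were *Crlf2* (0.9950), *Sgsm2* (0.9896) and *Serping1* (0.9869). For *C2* they were *Gm13090* (0.9845), *Znfx1* (0.9830) and *Myof* (0.9824), and for *Cfb* they were *Cpne8* (0.9778), *Rmrp* (0.9762) and *Acp5* (0.9604). *C2* and *Cfb*, which adjoin on chromosome 17, had an r of only 0.42 with each other. These values rest on 6 libraries in 3 groups, whose group differences, depth and outlying C library they share, and are descriptions.

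Genes of the interferon response, a programme induced in many cell types, moved in the same libraries. The 14 genes of that list summed to 98.5 and 81.6 FPKM in the C group, 873 and 1200 FPKM in the N group, and 85.2 and 91.4 FPKM in the NP group. Of the 13 tested, 10 rose for N against C and 11 fell for NP against N, where 1.48% and 1.39% of all genes did. The higher N library differed between the lists: the interferon sum was higher in N replicate 2, whereas 8 of the 9 complement genes were higher in N replicate 1, the exception being *Cfb*. The part of the interferon response in the complement differences was not tested.

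The rest of the system was read from a list of 46 other complement genes, of which 27 passed the filter. By limma, 0 of the 27 were called in any comparison. At an unadjusted *P* under 0.05, 13 were higher and 1 was lower in the N than in the C group, against 8.24% and 6.76% of all genes. In addition, 8 were lower in the NP than in the N group, against 5.83% of all genes. In the NP group 6 were higher and 1 was lower than in the C group, against 3.87% and 4.18% of all genes. The median differences were 0.33, -0.04 and 0.02, against -0.03, 0.03 and -0.01 over all genes tested.

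Of the classical pathway, the C1 proteases were the genes that could be tested. *C1s1* was at 14.4 and 18.8 FPKM in the C group, 32.8 and 25.8 FPKM in the N group, and 18.1 and 17.5 FPKM in the NP group. *C1ra* was at 6.10 and 8.01 FPKM in the C group, 17.9 and 11.9 FPKM in the N group, and 8.42 and 9.22 FPKM in the NP group. Both were highest in the N group, with differences from the C group of 0.79 (limma adjusted *P* = 0.120) and 0.96 (limma adjusted *P* = 0.124). In the lectin pathway, which is started by sugar-binding proteins, the collectin genes showed no such pattern. *Colec11* lay between 15.9 and 20.7 FPKM and *Colec12* between 7.07 and 10.9 FPKM over all libraries, and the differences of the N from the C group were -0.21 (95% interval -0.51 to 0.09) and 0.38 (95% interval 0.02 to 0.75).

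In the alternative pathway, *Cfd*, which encodes factor D (adipsin), a protease made by adipocytes, had the largest difference of all complement genes tested and the widest spread. It was at 1.17 and 5.53 FPKM in the C group, 142 and 53.5 FPKM in the N group, and 11.2 and 44.3 FPKM in the NP group. Its difference for N against C was 4.55 (SE 0.83, limma adjusted *P* = 0.0772), and for NP against N -1.91 (SE 0.83, limma adjusted *P* = 0.687). The 8 adipocyte markers summed to 4.49 and 45.7 FPKM in the C group, 132 and 122 FPKM in the N group, and 12.1 and 99.4 FPKM in the NP group, and 3 of them were at 0 in C replicate 1 and 2 in NP replicate 1. The lower library of the C group and of the NP group was the same for *Cfd* and for this sum, and the part of adipocytes in the *Cfd* values was not tested. *Cfp*, the gene of properdin, which stabilizes the alternative convertase, was at 4.95 and 5.63 FPKM in the C group, 14.0 and 8.43 FPKM in the N group, and 6.99 and 5.70 FPKM in the NP group (N against C 0.92, limma adjusted *P* = 0.159).

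The regulators included *Clu*, which encodes clusterin, an inhibitor of the terminal complex, and had the highest FPKM of all complement genes listed. *Clu* was at 394 to 627 FPKM over all libraries, and its N and C libraries overlapped. Of the 8 regulators tested, 0 were lower in both NP than in both N libraries, against 14.7% of all genes.

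Among the receptors, *Itgb2*, the shared β chain of complement receptors 3 and 4, was at 3.23 and 2.96 FPKM in the C group, 10.6 and 7.24 FPKM in the N group, and 3.46 and 2.34 FPKM in the NP group. Its differences were 1.25 (SE 0.22, limma adjusted *P* = 0.0664) for N against C and -1.34 (SE 0.22, limma adjusted *P* = 0.0590) for NP against N. *Cd93*, a receptor of endothelial and myeloid cells, was at 18.8 to 27.4 FPKM, and its NP and N libraries overlapped. All 7 receptors tested were higher in both N than in both C libraries, against 22.5% of all genes, and 5 of them were lower in both NP than in both N libraries, against 14.7%.

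The terminal components, which form the pore, were low. *C7* was at 6.83 and 7.12 FPKM in the C group, 9.27 and 10.1 FPKM in the N group, and 9.27 and 11.9 FPKM in the NP group. *C8g* was at 3.41 and 6.17 FPKM in the C group and between 1.98 and 2.82 FPKM in the N and NP libraries. Of the 46 other complement genes, 12 reached 1 FPKM in C replicate 2 and in no other library, *C9* at 3.71 FPKM and *Mbl2* at 3.21 FPKM among them, both chosen after their values were seen. *C9* and *Mbl2* were listed at 0 in all N and NP libraries. In C replicate 1 they were at 0.243 and 0.177 FPKM, so that their C means rest on C replicate 2, the library with the high hepatocyte sum.

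**Figure D5:**
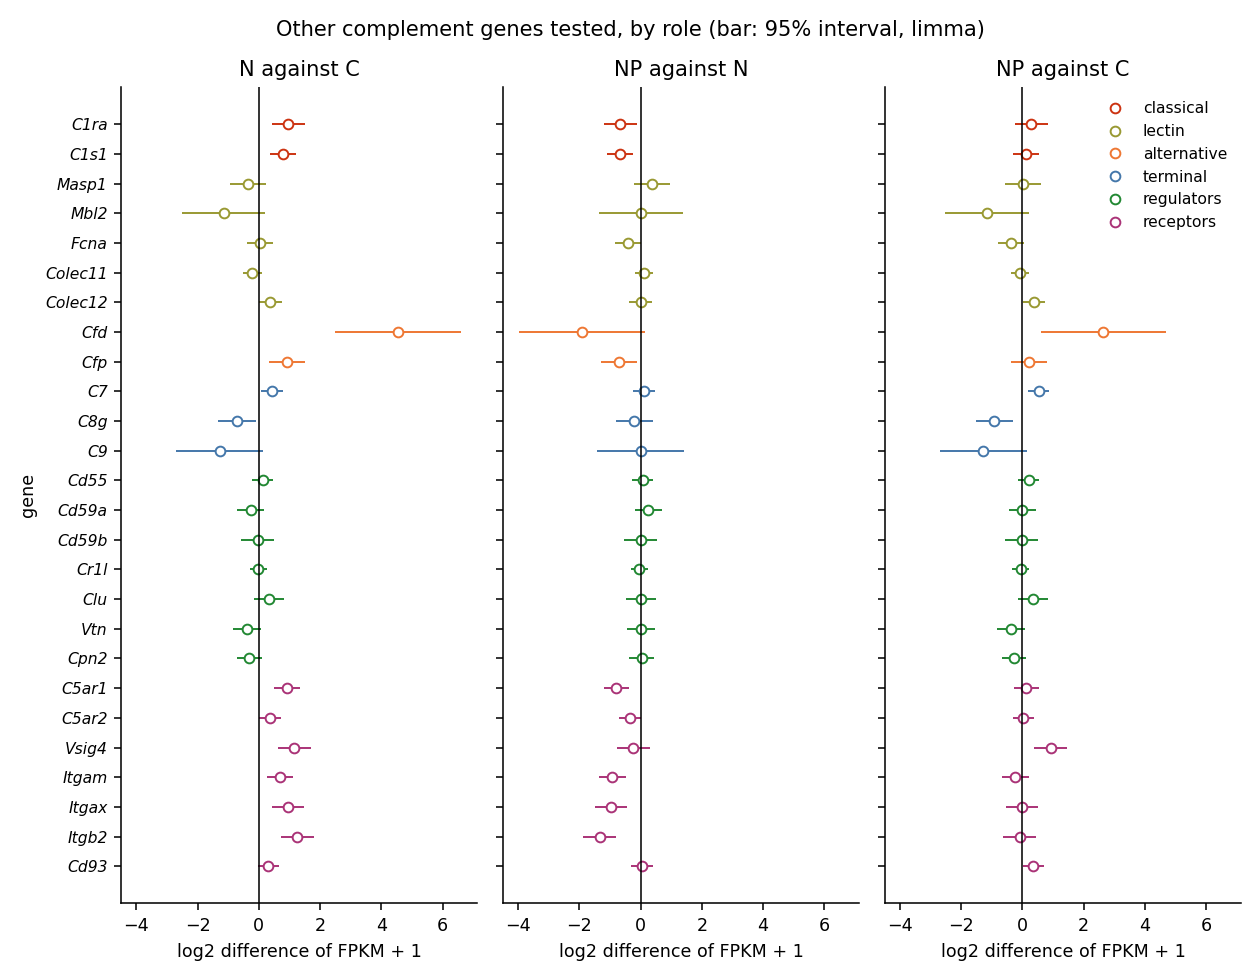
Difference of log2(FPKM + 1) for other complement genes tested, coloured by role, with 95% intervals from limma, in 1 panel per comparison. None of those shown has an adjusted *P* under 0.05; *Cfd* lies farthest from 0 with the widest interval, at 4.55 for N against C, and the classical and most receptor genes lie to the right for N against C and to the left for NP against N.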

How the data were processed

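Heart RNA of 6 libraries was analysed, with groups taken from the sample titles. The authors sequenced stranded mRNA libraries as single-end reads and mapped them to mm10, and the deposited values are FPKM per gene. Per the submitters' processing notes, TopHat2 2.0.13, Bowtie2 2.2.3, SAMtools 0.1.19 and Cufflinks 2.2.1 were used, and the gene annotation is not given in the sources used here. FPKM hold each gene as a share of its library, so that a change in abundant genes moves all others.

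No scaling was added before the transform to log2(FPKM + 1). A mean FPKM of 0.5 or more was required, and the 12923 genes that met it were fitted with limma 3.58.1 in R 4.3.3, with the 3 groups in one model, a mean-dependent prior and 3 residual degrees of freedom. The Benjamini-Hochberg adjustment ran over all genes tested in a comparison, with a threshold of 0.05. Exact permutation of 2 against 2 libraries cannot give a *P* value below 0.333 and was not used. Tables, ratios and figures were made with Python 3.11.15, numpy 2.4.6, pandas 2.3.3 and matplotlib 3.10.9. Depth was estimated from genes with 1 transcript in GENCODE M21, where 73.4% to 79.4% of low values lay within 0.1 read of a whole number. The fit and the depth estimate were tested on simulated data.

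The 9 genes and all lists were chosen with earlier results of these data known. The rule for naming other complement genes took every one past the threshold and the 2 with the highest mean FPKM in each role; 1 gene is not reported here. For likeness it took the 3 genes with the highest Pearson's r. Gene positions and promoter windows are from RefSeq. Alternatives covered the replicate number as a block, the pseudocount, the filter, the scaling, the samples in the fit and each library left out.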

Additional observations from a re-analysis of the deposited data

How the results depend on the processing

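The labels state no pairing, and the deviations of same-numbered libraries correlated at 0.0471 between the C and N groups, 0.124 between C and NP and 0.458 between N and NP. In the main fit the replicate numbers were not taken to pair the libraries, since 1 of these correlations was under 0.1. That correlation, between C and N, does not bear on whether the N and NP libraries share sets. The correlation of 0.458 does, so whether a block belongs in those libraries was not settled. Counts with it are given below. With the replicate block, limma called 328 genes between the N and C groups in place of 200, 7 of the 9 complement genes in place of 3 and 2 other complement genes in place of 0. It called 200 genes between the NP and N groups in place of 179, with 1 other complement gene in place of 0, and 20 genes in place of 5 between the NP and C groups. With the replicate block in the N and NP libraries only, the corresponding counts were 1070, 8 and 8 for N against C, 301, 5 (in place of 2) and 3 for NP against N, and 103 genes for NP against C. For NP against N, *C1qa* passed under both blocks (limma adjusted *P* = 0.0126 and 0.0199), while *C4b* (0.00979) and *C3ar1* (0.0261) passed under the second. FPKM scaled to the same total moved the median difference of all genes between the N and C groups from -0.03 to 0.12. It called 309 genes and 3 other complement genes for N against C, 1 of the 9 for NP against N and 10 genes for NP against C. Quantile normalization called 1 other complement gene for N against C and 1 of the 9 for NP against N. With only the 2 groups compared, 1 of the 9 was called for N against C and 78 genes for NP against N. Without the filter, 1 of the 9 was called for NP against N and 0 genes for NP against C, and a pseudocount of 0.1 called 12 genes there. With 1 library left out, calls ranged from 49 to 183 genes, 0 to 3 of the 9 and 0 to 2 other complement genes for N against C. They ranged from 67 to 108 genes and 0 to 3 of the 9 for NP against N, and from 5 to 101 genes and 0 to 2 other complement genes for NP against C. The lowest count for N against C came without C replicate 2, the 101 genes and both counts of 2 came without C replicate 1, and the 67 genes came without NP replicate 2. The other complement genes called without C replicate 1 were all lower in the N and NP groups than in C replicate 2. That library had the high hepatocyte sum. *Cfb* for NP against C, at -0.43, was -1.15 without C replicate 1 and 0.29 without C replicate 2. This was the only reversal among the 9 genes with 1 library left out. A low depth in the N and NP libraries limits *C2*, *Cfb* and *C3ar1*, which rest on at most 34 to 192 reads there.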
